A study of Mus musculus with 3 samples.

Results

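The enzymes of glycolysis, gluconeogenesis and related sugar pathways were followed in the mouse choroid plexus epithelium (CPE), the cell layer that lines the choroid plexus in the brain ventricles and secretes cerebrospinal fluid. A set of 40 gene symbols was listed by name, and every non-control probe whose gene name on the array equalled a listed symbol was taken. This gave 62 of the 41174 probes, for 39 genes. Pck1 was not analysed here. CPE was cut by laser from frozen brain sections of 3 healthy C57BL/6 mice, with no treatment and no genetic change named in the labels, and the amplified RNA of each mouse was labelled with Cy5 (red). RNA of RPE/choroid, that is the pigment epithelium behind the retina together with the vascular layer beneath it, from the same strain, was labelled with Cy3 (green) and served as common reference on all 3 2-colour Agilent arrays. The dyes were not swapped, so any dye bias of a probe remains in its ratio. The reference was 1 RNA, so its spread between animals is not part of the errors given here. Each mouse had its own array and slide, and mouse and slide cannot be told apart.

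Glycolysis splits glucose into pyruvate, and pyruvate dehydrogenase then feeds it into the citric acid cycle of the mitochondria, unless its kinases switch the complex off by phosphorylation. Side branches lead to glycogen, the cell's glucose store, to the pentose phosphate pathway, which makes NADPH and ribose, and to galactose. Gluconeogenesis runs the path backwards and is best known from liver and kidney. Many steps have several isoenzymes, which are encoded by separate genes and prefer different tissues.

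Of the 39 genes, 27 had high expression in CPE, 7 moderate and 5 low expression, and none very low. High expression means that the CPE intensity of the gene's main probe, averaged over the mice, ranked above the 90th percentile of all probes. The moderate class runs from the 50th to the 90th percentile and the low class from the 10th to the 50th. Over all 27845 gene names, 12.7% were in the high class. The main probe of a gene is its brightest over both channels among the probes that could be tested. A rank depends on how well a probe hybridises and does not order transcripts by abundance. In a bulk sample, fewer cells with a transcript and less RNA per cell cannot be told apart. When only the probes well above background in CPE on all arrays were ranked, 12 of 34 member genes were in the high class. With the median over all probes of a gene it was 17 of 39. The 12.7% over all gene names belongs to the main ranking only, and no such share is given for these alternatives.

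**Figure D1:**
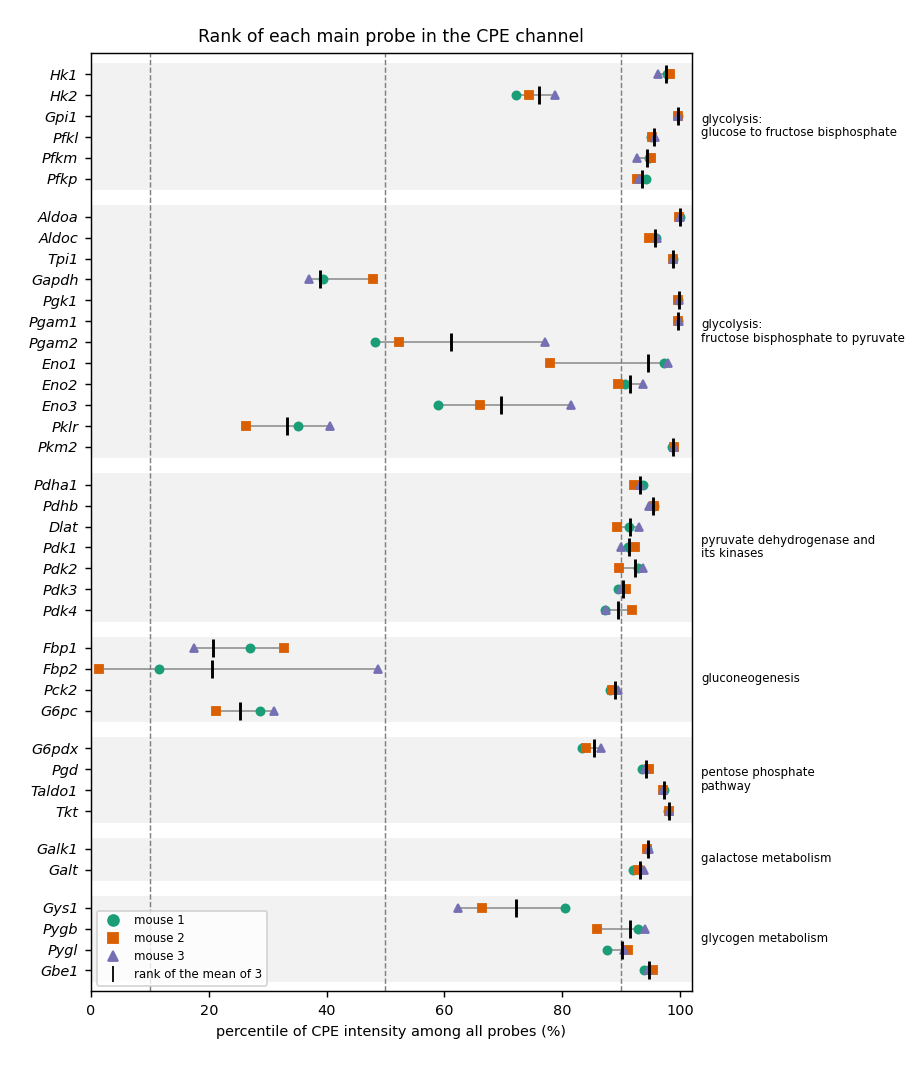
Percentile of the CPE intensity of the main probe of 39 genes among all probes, by pathway, with 1 symbol per mouse and a black tick for the rank of the mean of 3. Dashed lines mark the 10th, 50th and 90th percentile. Most steps of glycolysis lie above the 90th percentile in all mice, while Fbp1, Fbp2, G6pc, Pklr and the probe named Gapdh lie below the 50th.

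Within most pathways some enzymes or isoenzymes differed from the reference and others did not pass the test. Of the 36 genes tested, 12 passed the threshold, an adjusted p under 0.05 in limma together with a difference of at least 2-fold. Of these 12, 7 were higher in CPE, namely Pfkl, Pdk2, Pdk4, Tkt, Galk1, Gys1 and Pygb. The other 5 were lower in CPE, namely Hk2, Aldoc, Pgam2, Eno3 and Taldo1. Among all 17839 genes tested in the same way, 19.1% passed, 8.06% as higher and 11.1% as lower. The median log2 ratio of CPE over reference was 0.14 for the members and -0.04 for all genes. All 12 had the same sign in the 3 mice. A further 8 genes had an adjusted p under 0.05 in limma with less than a 2-fold difference, 6 higher and 2 lower in CPE. With these, 20 of the 36 had an adjusted p under 0.05 at any fold, against 42.3% of all genes, of which 18.7% were higher and 23.6% lower. For the other 16 genes the mean log2 ratio lay between -0.72 and 0.29. Centring each array on its median in place of loess moved the median of all probes by 0.13 on the log2 scale, and the members by -0.23 to 1.00 with a median of 0.66. With median centring 20 members passed, 15 higher and 5 lower, or 75% higher against 58.3% with loess. Of all probes that passed, 67.0% were higher with median centring and 41.1% with loess. In all, 5586 of 25838 probes passed with median centring and 4462 with loess. The same 12 genes stayed past the threshold in the same direction.

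**Figure D2:**
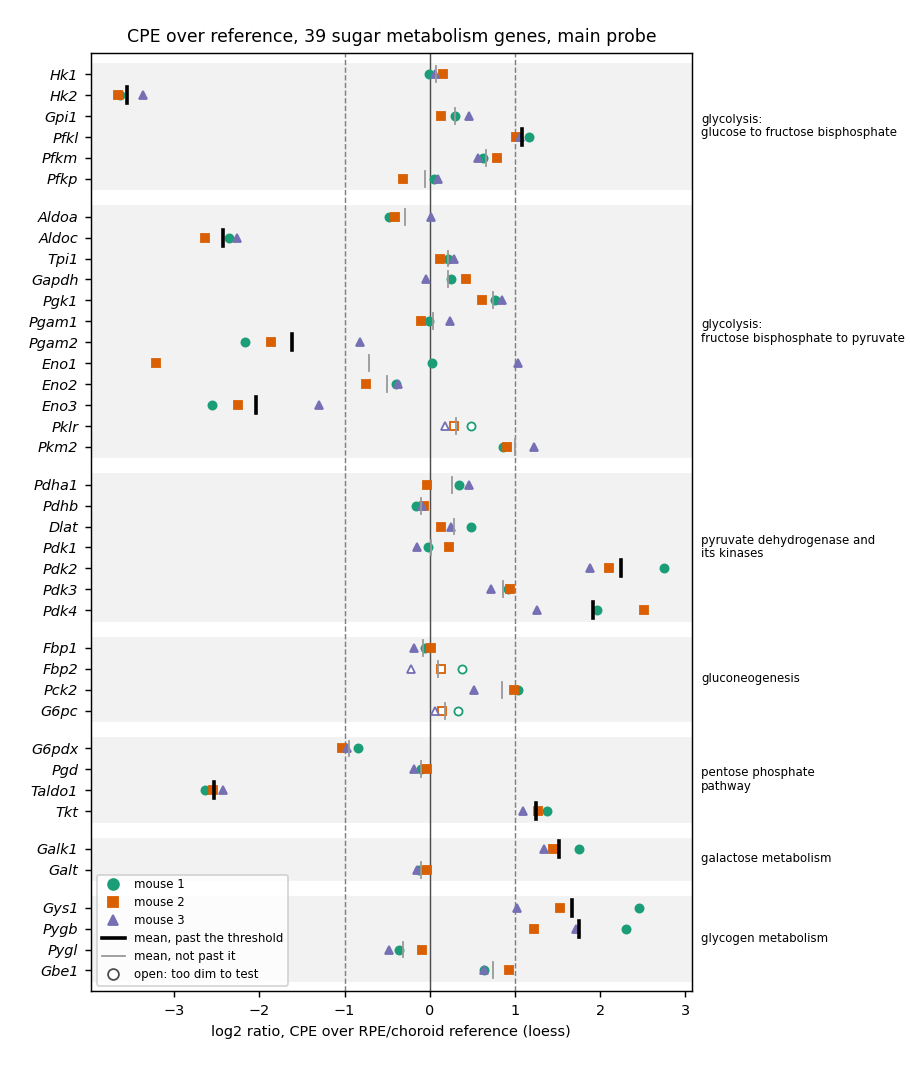
Log2 ratio of CPE over RPE/choroid reference for the main probe of 39 genes, by pathway. Each symbol is 1 mouse, the tick is the mean of 3, and open symbols are probes too dim to test. The 7 genes past the threshold on the right and the 5 on the left had all mice on 1 side of 0. The mean ratio of Pfkp, Aldoa, Eno2, Pdhb, Pgd, Galt and Pygl changed sign with median centring.

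Promoter sequences are printed here for the genes at both ends of the ratios, Hk2 as the lowest and Pdk2 and Pdk4 as the highest and next highest. They are RefSeq sequences of build GRCm38.p6, 250 bases upstream of the annotated start, on the minus strand in each case and read 5′ to 3′. Capitals mark ACGTG or its reverse complement CACGT, the core letters of the element bound by hypoxia-inducible factors, well-known regulators of glycolysis genes. Where matches on both strands overlap they read CACGTG, the E-box. Hk2 lies at chr6:82774455-82774704, Pdk2 (its first window) at chr11:95041372-95041621 and Pdk4 at chr6:5496279-5496528.
Hk2: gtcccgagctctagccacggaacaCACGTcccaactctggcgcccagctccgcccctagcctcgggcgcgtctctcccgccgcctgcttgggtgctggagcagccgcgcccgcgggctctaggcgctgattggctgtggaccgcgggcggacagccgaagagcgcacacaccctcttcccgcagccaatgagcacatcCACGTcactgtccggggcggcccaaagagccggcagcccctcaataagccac
Pdk2: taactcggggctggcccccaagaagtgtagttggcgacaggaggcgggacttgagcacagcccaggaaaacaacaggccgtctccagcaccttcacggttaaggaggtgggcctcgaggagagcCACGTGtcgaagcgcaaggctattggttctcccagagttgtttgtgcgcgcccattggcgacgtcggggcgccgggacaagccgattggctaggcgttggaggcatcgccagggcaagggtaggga
Pdk4: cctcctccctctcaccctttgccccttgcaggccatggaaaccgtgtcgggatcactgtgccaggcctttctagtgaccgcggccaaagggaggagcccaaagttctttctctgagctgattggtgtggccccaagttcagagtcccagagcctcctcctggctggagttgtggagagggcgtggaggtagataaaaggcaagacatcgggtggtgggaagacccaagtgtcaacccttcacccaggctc
The Hk2 window held 2 matches, both on the other strand and without overlap. The Pdk2 window held 1 match on each strand, which overlap in 1 E-box, and the second Pdk2 window held none. The Pdk4 window had no such letters. Of the 39 members, 14 had ACGTG on either strand in at least 1 window, or 35.9%. The share was 18.5% of the 27025 genes with a window and 23.7% of the 11042 such genes tested on the array. Among members, 3 of the 7 genes higher in CPE, 1 of the 5 lower and 9 of the 24 not past the threshold held it. CCAAT, searched on both strands as the CCAAT box, was present in 20 members (51.3%) and in 4420 of the 11042 genes tested on the array. TATAAA, searched on both strands as the TATA box, was present in 3 members (7.69%), against 9.46% of the genes tested. These are matches of letters, and binding was not measured. Genes with several annotated starts have several windows.

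Hexokinases trap glucose in the cell as glucose phosphate. Hk1, the form of brain and many other tissues, had a main probe with log2 ratios of -0.01, 0.16 and 0.07 in mouse 1, 2 and 3 and ranked at the 97.6th percentile in CPE. Its mean of 0.07 became 0.89 with median centring (adjusted p = 0.076 in limma). Hk2, the form of muscle and other insulin-sensitive or proliferating tissues, had CPE intensities of 367, 386 and 503 against 4561, 4870 and 5169 in the reference on the same arrays. All 3 CPE values were far below all 3 reference values. The log2 ratios of the 3 mice were -3.63, -3.66 and -3.36, with a mean of -3.55 ± 0.16 (SE, n = 3, adjusted p = 9.3e-06 in limma), or 11.7-fold lower in CPE, and -2.95 with median centring. Its probe (chr6:82690720-82690779, build mm8, minus strand) ranked at the 76.1st percentile in CPE, well above background on all arrays. The Hk1 log2 ratio exceeded that of Hk2 by 3.62 ± 0.19 (SD, n = 3), with 3.62, 3.81 and 3.43 in the mice.

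Markers of cell types of the eye were lower in CPE in the same comparison. All 8 photoreceptor markers tested were lower in CPE, with a summed intensity of 5011 to 6789 in CPE against 173056 to 178080 in the reference. Of 8 RPE and melanocyte markers 7 were lower, and Tyr, the defining enzyme of melanin synthesis, did not rise well above background in CPE of any mouse. Of 7 neuron markers 3 were lower, with sums of 1992 to 2910 against 16126 to 18493. Also lower were 4 of 5 stroma, 3 of 3 red blood cell and 3 of 5 macrophage markers. In CPE, however, 4 stroma, 2 red blood cell and 2 macrophage markers still ranked in the high class. Of 9 CPE markers 8 were higher in CPE, with sums of 208983 to 238061 against 33964 to 40264, and none was lower. Among these markers, Ttr and Enpp2 were saturated in CPE on all 3 arrays and Clic6 on 1, so their CPE sums are lower limits. The part of cell composition in any ratio was not tested.

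Glucose phosphate isomerase, Gpi1, ranked at the 99.7th percentile and had a mean log2 ratio of 0.29 with loess and of 1.23 with median centring, which passed (adjusted p = 0.020 in limma). Phosphofructokinase sets the pace of glycolysis and exists as a liver (Pfkl), a muscle (Pfkm) and a platelet type (Pfkp), all 3 with high expression in CPE. Pfkl had log2 ratios of 1.16, 1.02 and 1.06, with a mean of 1.08 ± 0.15 (SE, n = 3, adjusted p = 0.0013 in limma), and was higher in CPE, with 1.75 under median centring. For Pfkm the mouse values were 0.62, 0.79 and 0.57, with a mean of 0.66 (adjusted p = 0.012 in limma), which is less than 2-fold, and 1.34 with median centring, which passed. Pfkp had 0.05, -0.32 and 0.09 with a mean of -0.06, and 0.63 with median centring. For the main probes the order Pfkl, Pfkm, Pfkp held on every array, whereas a second Pfkp probe had 1.00 in mouse 2, above Pfkm. Pfkl exceeded Pfkp by 1.14 ± 0.18 (SD, n = 3), and Pfkl and Pfkm were 0.42 ± 0.17 apart.

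Aldolase cuts the sugar into trioses. Aldoa, the form of muscle and most tissues, had a CPE percentile of 99.96 and was saturated in CPE of mouse 1, so that its ratio there is a lower limit. On the log2 scale the ratios were -0.48, -0.41 and 0.02, with a mean of -0.29 that became 0.71 with median centring. Aldoc, the brain form, which is abundant in astrocytes, had CPE intensities of 3173, 2358 and 3335 against 16308, 14716 and 16019 in the reference. Its log2 ratios of -2.36, -2.64 and -2.26 lay close together, with a mean of -2.42 ± 0.16 (SE, n = 3, adjusted p = 4.2e-05 in limma), or 5.36-fold lower in CPE. With median centring the mean was -1.61, and with the median over its probes -1.63, both still past the threshold. Aldoc was still in the high class of CPE at the 95.7th percentile by its main probe, while its second tested probe ranked at the 44.4th. Of 6 astrocyte markers, Aqp4 and S100b were lower in CPE, Aldh1l1 was higher and 3 did not pass. The part of astrocytes or retinal cells in the Aldoc ratio was not tested. By the main probes, the Aldoa log2 ratio exceeded that of Aldoc by at least 1.88 in mouse 1, where Aldoa was saturated in CPE. In mouse 2 and 3 it did so by 2.23 and 2.28. The second Aldoc probe had -1.08, -0.47 and -0.93, nearer to Aldoa, and was under 2-fold from it in mouse 2 and 3.

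The enzymes of the next steps ranked high in CPE, and whether they differed from the reference by 2-fold depended on the normalization. Triose phosphate isomerase, Tpi1, ranked at the 98.8th percentile with a mean log2 ratio of 0.21 with loess, and passed as higher in CPE with median centring (1.06, adjusted p = 0.038 in limma). Phosphoglycerate kinase, Pgk1, had log2 ratios of 0.76, 0.61 and 0.85 with a mean of 0.74 (adjusted p = 0.0074 in limma), and its other probe had 0.79. Both Pgk1 probes lay above 0 in all mice and under 2-fold with loess, and the main probe passed with median centring (1.67, adjusted p = 0.0048 in limma).

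Gapdh, which makes the first ATP-yielding intermediate and is often used as a loading control, was measured poorly by the probe that bears its name. This probe (chr6:125127708-125127767, build mm8, minus strand) ranked at the 38.8th percentile and was well above background in CPE on 1 of 3 arrays. Its log2 ratios were 0.25, 0.42 and -0.04, with a mean of 0.21 (adjusted p = 0.35 in limma). Further probes of other names were linked to Gapdh through their accession in the RefSeq gene table, and they were looked up after the value of the named probe had been seen. The probe named LOC380687 (chr6:125127706-125127875, build mm8) ranked at the 99.9th percentile, with log2 ratios of 1.14, 0.79 and 1.43 and a mean of 1.12 ± 0.18 (SE, n = 3, adjusted p = 0.0023 in limma). The probe named MGC68323 (chr1:182164116-182164175, build mm8) also ranked at the 99.9th percentile, with a mean of 0.97 ± 0.19 (SE, n = 3). These bright probes were saturated in CPE on 1 and 2 arrays, which limits the upper values. Gapdh has many near-identical pseudogene copies in the mouse genome, so the transcripts behind each probe are uncertain. The low class of Gapdh above rests on the named probe alone.

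Phosphoglycerate mutase and enolase each have a form typical of skeletal muscle, Pgam2 and Eno3, and both were lower in CPE. Pgam2 had CPE intensities of 135, 164 and 493 against 607, 596 and 870 in the reference, and the highest CPE value was below the lowest reference value. The log2 ratios of the 3 mice were -2.16, -1.86 and -0.82, with a mean of -1.61 ± 0.26 (SE, n = 3, adjusted p = 0.0024 in limma), and -2.25 with the scanner log ratio. Eno3 had CPE intensities of 189, 254 and 636 against 1113, 1211 and 1569. On the log2 scale the ratios were -2.56, -2.26 and -1.30, with a mean of -2.04 ± 0.24 (SE, n = 3, adjusted p = 6.5e-04 in limma). For both genes mouse 3 had the highest CPE intensity and the ratio nearest to 0.

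Of 8 skeletal muscle markers, 7 were lower in CPE, with a median log2 ratio of -2.53 over the list. Their summed CPE intensity was 1707, 1855 and 3879 in mouse 1, 2 and 3 against 14731, 15142 and 15074 in the reference, or 11.6%, 12.3% and 25.7% of it. All 8 were well above background in CPE on at least 1 array. The summed CPE intensity was highest in mouse 3 for 6 of the 9 marker lists. These were the lists of muscle, neurons, astrocytes, photoreceptors, RPE and melanocytes, and CPE itself. Mouse 3 also had the most probes well above background. The rise was steepest for muscle. In mouse 1, 2 and 3 the neuron sums were 1992, 2313 and 2910, and the CPE marker sums were 208983, 233352 and 238061. The part of muscle tissue or of the array in the Pgam2 and Eno3 ratios was not tested.

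The other mutase and enolase genes, Pgam1, Eno1 and Eno2, did not pass the threshold with loess. Pgam1 ranked at the 99.8th percentile and had log2 ratios of -0.01, -0.10 and 0.24, with a mean of 0.04 that became 0.99 with median centring (adjusted p = 0.0501 in limma). It exceeded Pgam2 by 1.66 ± 0.55 (SD, n = 3), and by 2.44 with median centring. Eno2, the enolase of neurons and neuroendocrine cells, had -0.39, -0.75 and -0.38 with a mean of -0.51 (adjusted p = 0.039 in limma), which became 0.13 with median centring. Eno1, the common enolase, had 0.03, -3.22 and 1.03 with a mean of -0.72 ± 0.68 (SE, n = 3, adjusted p = 0.44 in limma). In mouse 2 its CPE intensity was 490, against 4858 and 6232 in the other mice, and without mouse 2 the mean was 0.53. With median centring it was -0.03 in the 3 mice. Of the enolase pairs, Eno2 exceeded Eno3 on all arrays by 1.53 ± 0.62 (SD, n = 3), whereas both pairs with Eno1 changed sign in mouse 2.

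Pyruvate kinase makes pyruvate and ATP. Pkm2, the array's name for the gene now called Pkm, whose spliced forms serve muscle, brain and growing cells, had log2 ratios of 0.86, 0.90 and 1.23 with a mean of 0.998. That is just short of 2-fold, with an adjusted p of 0.0024 in limma. Its other probe had a mean of 1.00 and passed, and the main probe passed without mouse 1, without mouse 2, with the scanner log ratio (1.04) and with median centring (1.83). Nothing in the files tells the spliced forms of this gene apart. Pklr, the liver and red cell form, was too dim to test. It was well above background in 1 CPE sample and in the reference on 1 array.

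Of the pyruvate dehydrogenase genes, none of the 3 complex subunits passed the threshold and 2 of the 4 kinases did. Pdha1 and Pdhb encode subunits of the first enzyme and Dlat the acetyltransferase. Their mean log2 ratios were 0.26, -0.11 and 0.29, all 3 with high expression. With median centring these values were 0.92, 0.63 and 0.88, and none passed. The first had an adjusted p of 0.0504 in limma. Of the kinases, Pdk1 had -0.02, 0.23 and -0.15 with a mean of 0.02, and 0.66 with median centring. Pdk2, a widely expressed kinase, had CPE intensities of 2029, 1386 and 2150 against 301, 323 and 582 in the reference. Its log2 ratios were 2.75, 2.10 and 1.88, with a mean of 2.25 ± 0.20 (SE, n = 3, adjusted p = 1.6e-04 in limma), or 4.74-fold higher in CPE. Pdk4, known as the kinase induced by fasting, had 1129, 1786 and 1025 against 290, 312 and 428. The log2 ratios of the 3 mice were 1.96, 2.52 and 1.26, with a mean of 1.91 ± 0.24 (SE, n = 3, adjusted p = 7.7e-04 in limma), or 3.77-fold higher. Pdk3 had 0.91, 0.94 and 0.72 with a mean of 0.86 (adjusted p = 0.0039 in limma) and was under 2-fold with loess, but it passed with median centring (1.43) and with the scanner log ratio (1.01).

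Pdk1 minus Pdk2 was -2.77, -1.87 and -2.03 on the arrays of mouse 1, 2 and 3, and Pdk1 minus Pdk4 was -1.98, -2.29 and -1.41, in log2 ratio. The lead of Pdk2 over Pdk3 was 1.39 ± 0.39 (SD, n = 3). Pdk2 and Pdk4 were not ordered, since their difference was 0.79, -0.41 and 0.62. Over all families, 18 isoenzyme pairs were listed and 16 had both genes measured. By their main probes, 10 of the 16 differed by at least 2-fold on average with the same sign in all mice. The pair with the saturated Aldoa was among them. No share is given for other pairs of genes. The second Aldoc probe (mean -0.83) lay within 2-fold of the measured Aldoa mean (-0.29). A second Pfkp probe (0.46) lay within 2-fold of Pfkl (1.08). Another Pfkp probe (-1.77) lay further from Pfkl, and all other tested Hk1 probes lay further from Hk2. With 3 mice an exact two-sided sign-flip permutation test cannot go below p = 0.25, which is 0.31 after adjustment over the 16 pairs, so none could reach 0.05. These differences of ratios compare each enzyme with its own reference level and do not say which isoenzyme is more abundant.

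**Figure D3:**
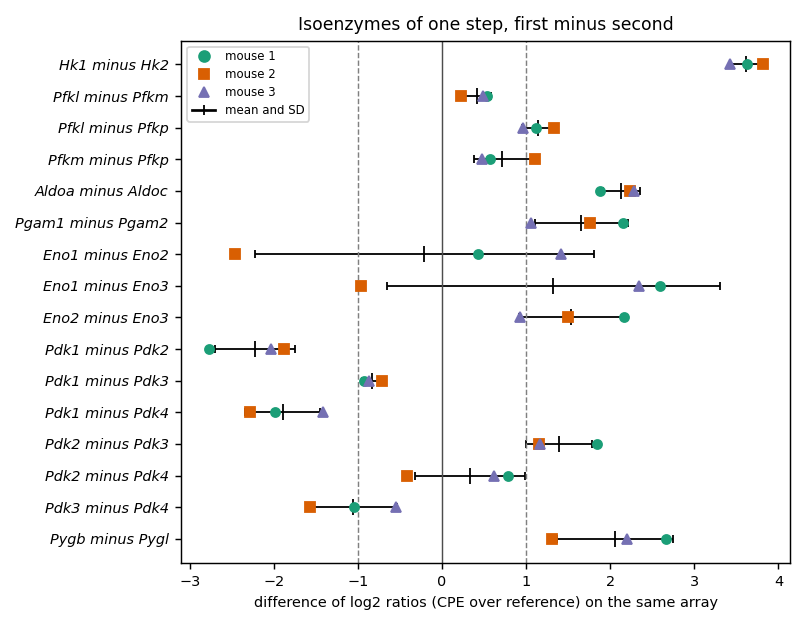
Difference between the log2 ratios (CPE over reference) of the main probes of 2 isoenzymes on the same array, first gene minus second. The 16 pairs with both genes measured are shown. Symbols are mice, black bars the mean and SD of 3, and dashed lines a 2-fold difference. Hk1 minus Hk2 lies above 3 in all mice, while both pairs with Eno1 and the pair Pdk2 and Pdk4 have mice on both sides of 0.

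Among the members, the enzymes particular to gluconeogenesis were dim with 1 exception. Outside the member list, pyruvate carboxylase (Pcx) and the glucose phosphatase G6pc3, described below, ranked at the 97.0th and 96.4th percentile in CPE. Fructose bisphosphatase undoes the phosphofructokinase step. Fbp1 ranked at the 20.8th percentile in CPE, was well above background in 1 CPE sample and had log2 ratios of -0.05, 0.01 and -0.18. Its muscle form Fbp2 (20.6th percentile) and the liver glucose phosphatase G6pc (25.3rd percentile) were each well above background on 1 array per channel and were not tested. For Fbp2 and G6pc the signal over background was too low to show a difference, and Fbp1, which was well above background in the reference on all arrays, did not pass (adjusted p = 0.73 in limma). Pck2, the mitochondrial enzyme that makes phosphoenolpyruvate, was the exception at the 89.0th percentile. It had 1.03, 0.99 and 0.52 with a mean of 0.85 (adjusted p = 0.0066 in limma), under 2-fold with loess, and passed with median centring (1.37) and with the scanner log ratio (1.05).

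In the pentose phosphate pathway both enzymes of the sugar-shuffling part differed from the reference, in opposite directions. Transketolase, Tkt, had CPE intensities of 6304, 6433 and 6608 against 2434, 2659 and 3083. On the log2 scale the ratios were 1.37, 1.27 and 1.10, with a mean of 1.25 ± 0.15 (SE, n = 3, adjusted p = 7.2e-04 in limma), or 2.38-fold higher in CPE, and 2.02 with median centring. Transaldolase, Taldo1, had 4630, 4186 and 4298 against 28761, 24417 and 23047. Its log2 ratios were -2.63, -2.54 and -2.42, with a mean of -2.53 ± 0.15 (SE, n = 3, adjusted p = 2.8e-05 in limma), or 5.79-fold lower, and -1.66 with median centring. Both ranked above the 97th percentile in CPE, at 98.2 and 97.3, and their values in CPE and reference did not overlap. In the NADPH-making part, glucose phosphate dehydrogenase, G6pdx, had -0.85, -1.03 and -0.97 with a mean of -0.95 (adjusted p = 0.0023 in limma), just under 2-fold, and -0.38 with median centring (adjusted p = 0.43 in limma). Phosphogluconate dehydrogenase, Pgd, had a mean of -0.11, which became 0.59 with median centring. The call for Tkt rests on its main probe, since a second tested probe had a mean of 0.38 and the median over the probes did not pass.

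Galactokinase, Galk1, which starts the use of galactose, had CPE intensities of 2548, 2465 and 2540 against 758, 904 and 1003. The log2 ratios of the 3 mice were 1.75, 1.45 and 1.34, with a mean of 1.51 ± 0.16 (SE, n = 3, adjusted p = 3.7e-04 in limma), or 2.85-fold higher in CPE, and 2.13 with median centring. Galt, the uridylyltransferase of the next step, had -0.12, -0.03 and -0.15, and 0.56 on average with median centring. Both genes were in the high class.

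Of the glycogen genes in the member list, Gys1 for synthesis and Pygb for breakdown passed as higher in CPE. Outside the member list, Gyg (-2.08) and Ppp1r3c (-1.29), described below, were lower in CPE, and Ppp1r3c did not pass with median centring. Glycogen synthase, Gys1, had CPE intensities of 740, 324 and 253 against 135, 113 and 125 in the reference. On the log2 scale the ratios were 2.45, 1.52 and 1.02, with a mean of 1.67 ± 0.26 (SE, n = 3, adjusted p = 0.0022 in limma). The scanner log ratio gave a larger mean of 2.76. Mouse 1 stood highest for Gys1, and the lowest CPE value was still above all reference values. Glycogen phosphorylase of brain type, Pygb, had 2003, 966 and 2300 against 405, 415 and 698. Its log2 ratios were 2.31, 1.22 and 1.72, with a mean of 1.75 ± 0.22 (SE, n = 3, adjusted p = 7.9e-04 in limma), and its second probe passed as well with a mean of 1.27. The liver type Pygl had -0.36, -0.09 and -0.47 with a mean of -0.31, and 0.31 with median centring. Pygb exceeded Pygl by 2.06 ± 0.69 (SD, n = 3). The branching enzyme Gbe1 had 0.64, 0.93 and 0.64 with a mean of 0.74 (adjusted p = 0.0083 in limma), under 2-fold, and passed with median centring (1.41).

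There were 16 members with more than 1 tested probe, and for 13 of them the probes lay within 2-fold of each other, by at most 0.87 on the log2 scale. The exceptions were Hk1, Pfkp and Aldoc. For Hk1 the brightest probe (chr10:61664525-61664584, build mm8), which lies most 3′, had a mean of 0.07. The probe 819 bp upstream had 2.51, 1.16 and 1.85 with a mean of 1.84, and the one at 2461 bp had a mean of 1.53. Another without coordinates had a mean of 1.21. These 3 Hk1 probes were higher in CPE by the same threshold (adjusted p = 0.0011, 0.0023 and 0.026 in limma), so that the gene differs from the reference by 3 of its 5 tested probes but not by its brightest. A probe at 46285 bp had a mean of 0.26, and the farthest, at 89203 bp, was too dim to test. For Pfkp, the probe at 9172 bp had -2.01, -2.22 and -1.06 and was lower in CPE, with a mean of -1.77 ± 0.24 (SE, n = 3, adjusted p = 0.0011 in limma). The other Pfkp probes had means of -0.06 and 0.46. For Aldoc the second probe lies 1225 bp further 3′ and had a mean of -0.83 (adjusted p = 0.0082 in limma), in the same direction as the main probe but under 2-fold. Distances are along the genome with introns included. Which transcript forms the probes detect was not tested. Counted by probe, 18 of the 56 tested passed, 12 higher and 6 lower, against 17.3% of all 25838 probes, 7.09% higher and 10.2% lower.

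**Figure D4:**
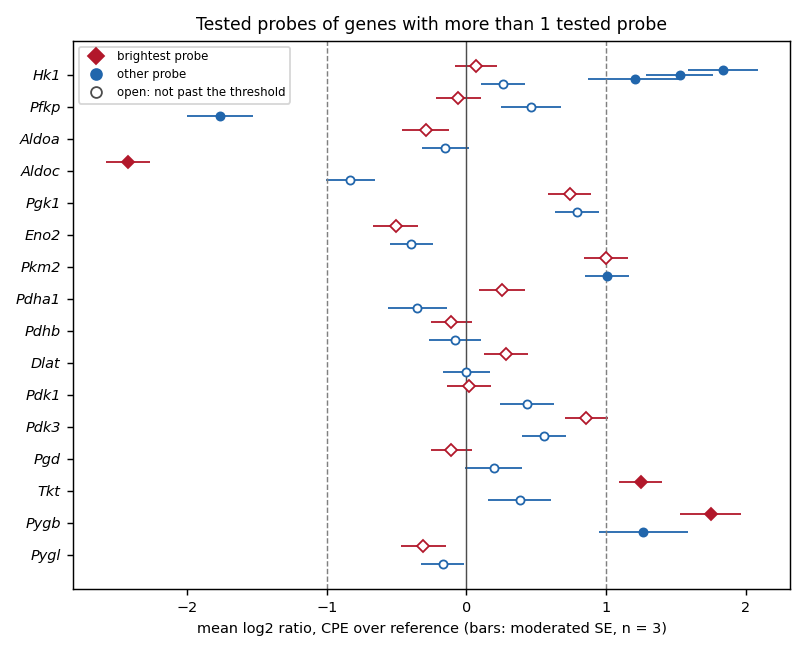
Mean log2 ratio of CPE over reference for every tested probe of the 16 genes with more than 1, with moderated SE bars (n = 3). Diamonds are the brightest probe, circles the others, and filled symbols are past the threshold. The probes of Hk1, Pfkp and Aldoc spread over more than 2-fold, those of the other genes over less.

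Amplified RNA can lose its 5′ part, so the 2 outermost probes of a gene were compared as the 5′ minus the 3′ log2 ratio, relative to the mean of the other mice. There were 15 members with located probes at least 100 bp apart. The median of this value was 0.13, -0.42 and 0.30 in mouse 1, 2 and 3, and in mouse 2 it was below 0 for 11 of 15 members (73.3%), against 72.5% of 5265 genes. For these 5265 genes the medians were 0.13, -0.29 and 0.18. Of the members, Pfkp was lower by 2-fold or more in mouse 2, 1 of 15 against 11.3% of all such genes. Mouse 2 also had the lowest share of probes well above background in CPE, 46.0%, against 58.5% in mouse 1 and 85.6% in mouse 3. Of the 62 member probes 53, 51 and 60 were well above background in the CPE of mouse 1, 2 and 3. The part of RNA quality in the values of mouse 2 was not tested. Leaving out each mouse in turn, 13 members passed each time, 8 higher and 5 lower. The added gene was Pkm2 without mouse 1 or mouse 2 and Pck2 without mouse 3.

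Of 50 further symbols of the same pathways outside the member list, 49 were found on the array, on 48 probes because Pgm1 and Pgm2 shared 1. Of the 43 tested, 4 were higher and 6 lower in CPE, or 23.3% in all, near the 19.1% of all genes (8.06% higher and 11.1% lower). The 4 higher were Gpd1 with a mean log2 ratio of 1.66, which links glycolysis to lipid synthesis and the glycerol phosphate shuttle, Adpgk (1.58), an ADP-dependent glucokinase, G6pc3 (1.47), the ubiquitous glucose phosphatase, and Pcx (1.08), pyruvate carboxylase. The lower ones included glycogenin, Gyg, which primes glycogen, with -2.01, -2.03 and -2.21 in the mice and a mean of -2.08. Pfkfb3 (-1.67) and Pfkfb2 (-1.64), which set the level of an activator of phosphofructokinase, were lower too. So were Ppp1r3c (-1.29), which targets a phosphatase to glycogen, Akr1b3 (-1.17), the aldose reductase of the polyol pathway, and Rpia (-1.07), the ribose phosphate isomerase. With median centring the list turned to 9 higher and 3 lower. The 4 higher genes still passed, as did Pfkfb2, Pfkfb3 and Gyg (-1.37), while Ppp1r3c (-0.91), Akr1b3 (-0.52) and Rpia (-0.48) did not. Ppp1r3c did not pass with the median over its probes either (-0.65).

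The members were bright, with a median of 10.87 over the tested genes for the mean log2 intensity of both channels, against 8.35 for all tested probes. Loess removes a trend of the ratio with brightness, and it gave lower ratios than median centring for most members. Relative to the median of all probes, the members' median log2 ratio was 0.18 with loess, 0.79 with median centring and 0.32 with the scanner software's own log ratio. Gpi1, Pfkm, Tpi1, Pgk1, Pkm2, Pdk3, Pck2 and Gbe1 passed as higher in CPE with median centring and did not with loess. The 12 genes past the threshold with loess were so with median centring too.

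**Figure D5:**
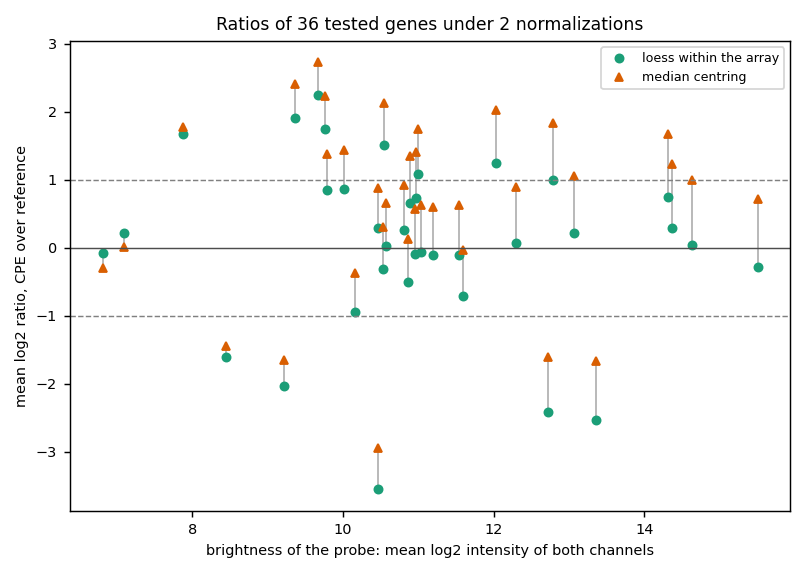
Mean log2 ratio of the 36 tested genes against probe brightness, the mean log2 intensity of both channels, with loess (circles) and with median centring (triangles), joined by a line per gene. Dashed lines mark 2-fold. Median centring places most bright genes higher, by 0.66 in the median, and changes the sign of 7 genes with loess means near or below 0.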

How the data were processed

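Gene expression was measured on 3 Agilent arrays with 2 colours. The authors scanned them with Agilent Feature Extraction 9.5.3.1, and the deposited scanner files hold the intensity of each spot and of its background in both channels, with flags, and a log10 ratio of the processed intensities. A deposited table on the log2 scale, which the authors normalized between arrays with Aquantile, followed the ranks of the CPE intensity (Spearman 0.998 to 0.999 over probes) and was used as an alternative for the level classes. Probe positions are those of the scanner files, build mm8. Annotation of that build was not used here.

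With R 4.3.3 and limma 3.58.1, intensities were corrected with normexp (offset 50), loess-normalized within each array, with control and outlier spots given weight 0, and averaged over spots of a probe. A probe was tested if either of its channels rose well above background on every array (25838 of 41174) in an intercept-only model with moderated errors. P-values were adjusted by Benjamini-Hochberg over all tested probes. A probe passed with an adjusted p under 0.05 and at least 2-fold. Level classes used the mean red intensity without background correction, after Aquantile. Intensities quoted per mouse, and their sums, are those after normexp, loess within the array and Aquantile between arrays. The fit was tested on simulated data. Figures were drawn with Python 3.11.15 and matplotlib 3.10.9.

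The number of arrays limits the precision. All members were accounted for. Values are given per mouse for members past the threshold, isoenzymes, Gapdh, Galk1 and genes whose probes differed by 2-fold. Alternatives were no background correction, median centring, the scanner log ratio, other filters, array weights, leaving out each mouse, and the median over probes. Those for the isoenzyme pairs were chosen after seeing the data. The members, gene lists and marker lists were chosen with earlier results of these data known.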

Additional observations from a re-analysis of the deposited data

How the results depend on the processing

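All 12 member genes past the threshold kept their direction and their call without background correction, with median centring, with the scanner log ratio, without the filter on dim probes, with both channels required to be well above background, with array weights and without each mouse. With the median over the probes of a gene 13 of 36 passed (8 higher), Hk1 (1.20) and Pkm2 (1.00) among them, while Tkt (0.81) no longer did. With the scanner log ratio 15 passed (10 higher), with Pkm2, Pdk3 and Pck2 added. The count of 12 member genes (7 higher, 5 lower) became 20 (15 higher) with median centring. For pathway genes outside the list, the counts of 4 higher and 6 lower became 9 and 3 with median centring, and the higher count 7 with the scanner log ratio. Over all probes, 1833 were higher, and 3744 with median centring. With the scanner log ratio 6761 probes passed in all, against 4462, and 2849 were higher. The high class held 12 genes when only probes well above background were ranked and 17 with the median over probes, against 27. Without each mouse in turn it held 25 to 28 genes. The count of members past the threshold was then 13, that of pathway genes 9 to 10, that of all probes 4030 to 5311, with 1434 to 2482 higher, and that of isoenzyme pairs 10.

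The mean log2 ratio changed sign with median centring for Pfkp (0.63), Aldoa (0.71), Eno2 (0.13), Pdhb (0.63), Pgd (0.59), Galt (0.56) and Pygl (0.31), with the scanner log ratio for Pfkp (0.0063), and with the median over probes for Pdha1 (-0.047) and Pgd (0.044). Leaving out each mouse in turn, it ranged from -0.133 to 0.0723 for Pfkp (above 0 without mouse 2), from -1.59 to 0.53 for Eno1 (above 0 without mouse 2), from -0.0839 to 0.104 for Pdk1 (below 0 without mouse 2) and from -0.0554 to 0.113 for Pgam1 (below 0 without mouse 3). The cause was not tested. Of 358 comparisons of a member's log2 ratio with an alternative, 327 kept direction and side of the threshold. No paired analysis was possible because the mice form 1 group, with no second group that shares their numbers. The pairing of CPE with reference on each array is already part of the ratio. Depth is not defined for arrays, and a dim signal limits Pklr, Fbp1, Fbp2, G6pc and the named Gapdh probe.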
